A study of Homo sapiens with 28 samples.

Results

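The genes described here are 45 interferon-stimulated genes (ISGs) beyond the IFIT, OAS and MX families, measured in U937 cells, a human monocytic line derived from a histiocytic lymphoma. They were taken as a named list of 45 symbols out of the 56809 gene symbols quantified, and were sorted by what their products do: 3 cytoplasmic RNA sensors, 6 genes of ISG15 conjugation, 5 of viral entry and release, 6 of RNA decay, editing and translation, 2 of antiviral nucleotide metabolism, 5 of ADP-ribosylation, 5 TRIM and nuclear body proteins and 13 other interferon-induced proteins. Of the 45, 43 had enough reads to be tested. IFITM3, which blocks virus entry at endosomes, did not, and EPSTI1 was listed at 0 in 26 of the 28 libraries.

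The libraries came from CRISPR knockout clones of each NF-κB subunit and from control clones, each sampled untreated and after 6 h with 500 ng/ml lipopolysaccharide (LPS), a bacterial cell wall component. The knockout groups were p50 (NFKB1, 2 clones), p52 (NFKB2, 2 clones), p65 (RELA, 3 clones), cREL (REL, 2 clones) and RELB (RELB, 2 clones), and the control group, CTR, held 3 clones that had received non-specific guide RNAs. Every replicate is therefore 1 clone with 1 library for each treatment, and clone-to-clone differences that have nothing to do with the targeted gene enter the spread between replicates. Each clone was assigned by its labels to 1 of 3 batches: batch A held 5 knockout clones and no CTR clone, batch B held 4 knockout clones and CTR replicate 2, and batch C held p65 replicates 2 and 3 with CTR replicates 1 and 3.

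ISGs are the genes that type I and type III interferons switch on, and most of them block a step of virus replication. In monocytic cells LPS can reach them indirectly: Toll-like receptor 4 signals through the adaptor TRIF to the factor IRF3, IRF3 together with NF-κB switches on the interferon gene IFNB1, and secreted interferon then acts back through the receptor pair IFNAR1 and IFNAR2. The receptor activates ISGF3, a complex with STAT2 and IRF9 among its subunits that binds a promoter element called the ISRE, and a basal level of the same loop sets how much ISG mRNA resting cells hold.

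The ISRE is shown first because it is the element that many of the members share. Its core is written as GAAA, 2 bases of any kind, then GAAA, and was searched on both strands in a window of 300 bases, 250 before to 50 after each RefSeq transcription start (GRCh38.p14). Windows were found for 38 of the 45 members. The core was present for 25 of these 38 members, 65.8%, against 4.38% of the 27305 genes with a window. The kB motif that NF-κB dimers bind was present for 7, namely BST2, DDX58, HELZ2, IFIH1, IFITM3, NMI and XAF1, 18.4% against 13.3% of genes. A match is a string of letters and not evidence of binding, and the list was drawn up from genes already known to respond to interferon. The 6 windows printed next belong to members whose values recur in the results: ISG15 and IFI6, which stood far above the other clones in CTR replicate 1, IFIH1, which was higher with LPS in every control clone, PLSCR1, which passed the test between p65 and CTR, DTX3L, whose site is shared with its neighbour PARP9, and TRIM25, which has no core in this window. Capitals mark the ISRE core, and each window is written 5′ to 3′ along the gene's own strand.
ISG15, chr1:1013247-1013546, plus strand: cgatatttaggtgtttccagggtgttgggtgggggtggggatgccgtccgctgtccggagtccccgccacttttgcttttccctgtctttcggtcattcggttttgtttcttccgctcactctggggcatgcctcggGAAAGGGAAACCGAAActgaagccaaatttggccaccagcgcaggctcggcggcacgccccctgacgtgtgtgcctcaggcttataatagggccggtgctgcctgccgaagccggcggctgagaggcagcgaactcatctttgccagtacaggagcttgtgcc
IFI6, chr1:27672143-27672442, minus strand: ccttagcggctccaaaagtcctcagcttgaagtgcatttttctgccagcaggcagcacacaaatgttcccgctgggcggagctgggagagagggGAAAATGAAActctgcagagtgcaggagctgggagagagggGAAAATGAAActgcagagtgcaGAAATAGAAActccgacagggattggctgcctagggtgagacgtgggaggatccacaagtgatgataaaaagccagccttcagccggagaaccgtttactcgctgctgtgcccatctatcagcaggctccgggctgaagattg
IFIH1, chr2:162318635-162318934, minus strand: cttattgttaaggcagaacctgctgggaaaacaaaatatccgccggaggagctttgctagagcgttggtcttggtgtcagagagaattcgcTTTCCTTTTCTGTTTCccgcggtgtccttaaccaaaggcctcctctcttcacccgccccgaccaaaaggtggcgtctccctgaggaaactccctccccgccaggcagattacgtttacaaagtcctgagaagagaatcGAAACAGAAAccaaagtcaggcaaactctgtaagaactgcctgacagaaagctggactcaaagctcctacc
PLSCR1, chr3:146544546-146544845, minus strand: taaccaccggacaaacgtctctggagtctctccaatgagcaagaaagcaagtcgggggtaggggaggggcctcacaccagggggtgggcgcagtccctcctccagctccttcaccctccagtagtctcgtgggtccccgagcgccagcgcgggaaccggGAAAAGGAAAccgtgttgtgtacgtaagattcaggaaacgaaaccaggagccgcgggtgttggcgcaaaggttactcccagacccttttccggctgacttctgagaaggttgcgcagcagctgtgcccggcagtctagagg
DTX3L, chr3:122564088-122564387, plus strand: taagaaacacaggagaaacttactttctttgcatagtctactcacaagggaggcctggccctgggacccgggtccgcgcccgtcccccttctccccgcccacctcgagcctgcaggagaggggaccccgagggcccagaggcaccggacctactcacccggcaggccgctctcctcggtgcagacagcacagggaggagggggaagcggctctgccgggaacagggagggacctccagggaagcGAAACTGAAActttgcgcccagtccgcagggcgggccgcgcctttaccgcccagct
TRIM25, chr17:56914000-56914299, minus strand: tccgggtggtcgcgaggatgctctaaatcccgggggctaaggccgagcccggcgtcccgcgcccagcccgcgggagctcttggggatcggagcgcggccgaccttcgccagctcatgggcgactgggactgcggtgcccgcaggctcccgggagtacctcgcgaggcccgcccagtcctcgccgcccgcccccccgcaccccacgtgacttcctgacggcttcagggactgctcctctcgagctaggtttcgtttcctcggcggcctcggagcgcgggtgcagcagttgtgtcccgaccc
ISG15 carries 2 overlapping cores that begin 113 and 107 bases before the start, IFI6 carries 3 at 156, 115 and 93 bases, and IFIH1 carries 3 at 159, 153 and 21 bases. PLSCR1 has 1 core 91 bases before the start shown, which is the first of its 2 listed starts. DTX3L has 1 core only 6 bases before its start, and the same letters lie 41 bases before the start of PARP9, which is read in the opposite direction.

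The libraries held 12643400 to 22122400 estimated counts each, with 22783 to 25837 genes detected. Of 12 markers listed for the U937 line, 11 averaged over 1 TPM (transcript abundance scaled for transcript length and library size), led by ELANE and LYZ. Of the marker lists for other cell types, 3 of 10 T and NK cell genes (TRAC, NKG7 and IL7R) averaged over 1 TPM while CD3D was at 0 in every library, and 2 of 5 B cell genes, PAX5 among them, did while MS4A1 was at 0. PPBP of the platelet list and KRT8 of the epithelial list were the only others over 1 TPM. RELA mRNA went against the p65 label in 1 clone: it was present at 43.7 to 52.1 TPM in both libraries of the clone labelled p65 replicate 1, against 3.20 to 8.19 TPM in p65 replicates 2 and 3 and 23.2 to 38.3 TPM in the other genotypes. An mRNA level does not show whether protein is made, and the NF-κB targets of this clone had the lowest median log2 change with LPS of all 14 clones, 0.35 against 1.83 and 1.42 in p65 replicates 2 and 3. The libraries are kept as labelled, and the medians and calls of the members in p65 are also given without them.

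The summed level of the interferon programme was high in a single control clone. With LPS, the summed level of the 45 members was 1314 to 1514 TPM in the 11 knockout clones, against 5617, 1252 and 1622 TPM in CTR replicates 1, 2 and 3. Untreated, it was 1117 to 1464 TPM in the knockout clones, against 2693, 1188 and 1423 TPM in the same CTR clones. In this sum the other 2 control clones thus lay at or near the range of the knockouts, and the group mean of CTR is largely that of 1 clone. Single members could differ: on counts scaled for library size, CTR replicate 3 with LPS lay above all 11 knockout clones for 9 of 43 members. CTR replicate 2 did so for 1 member. For the IFIT family those counts were 4 and 0 of 4 genes. The share of all genes is not given here for these counts. In these bulk libraries a larger share of responding cells and more mRNA per cell cannot be told apart.

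**Figure D1:**
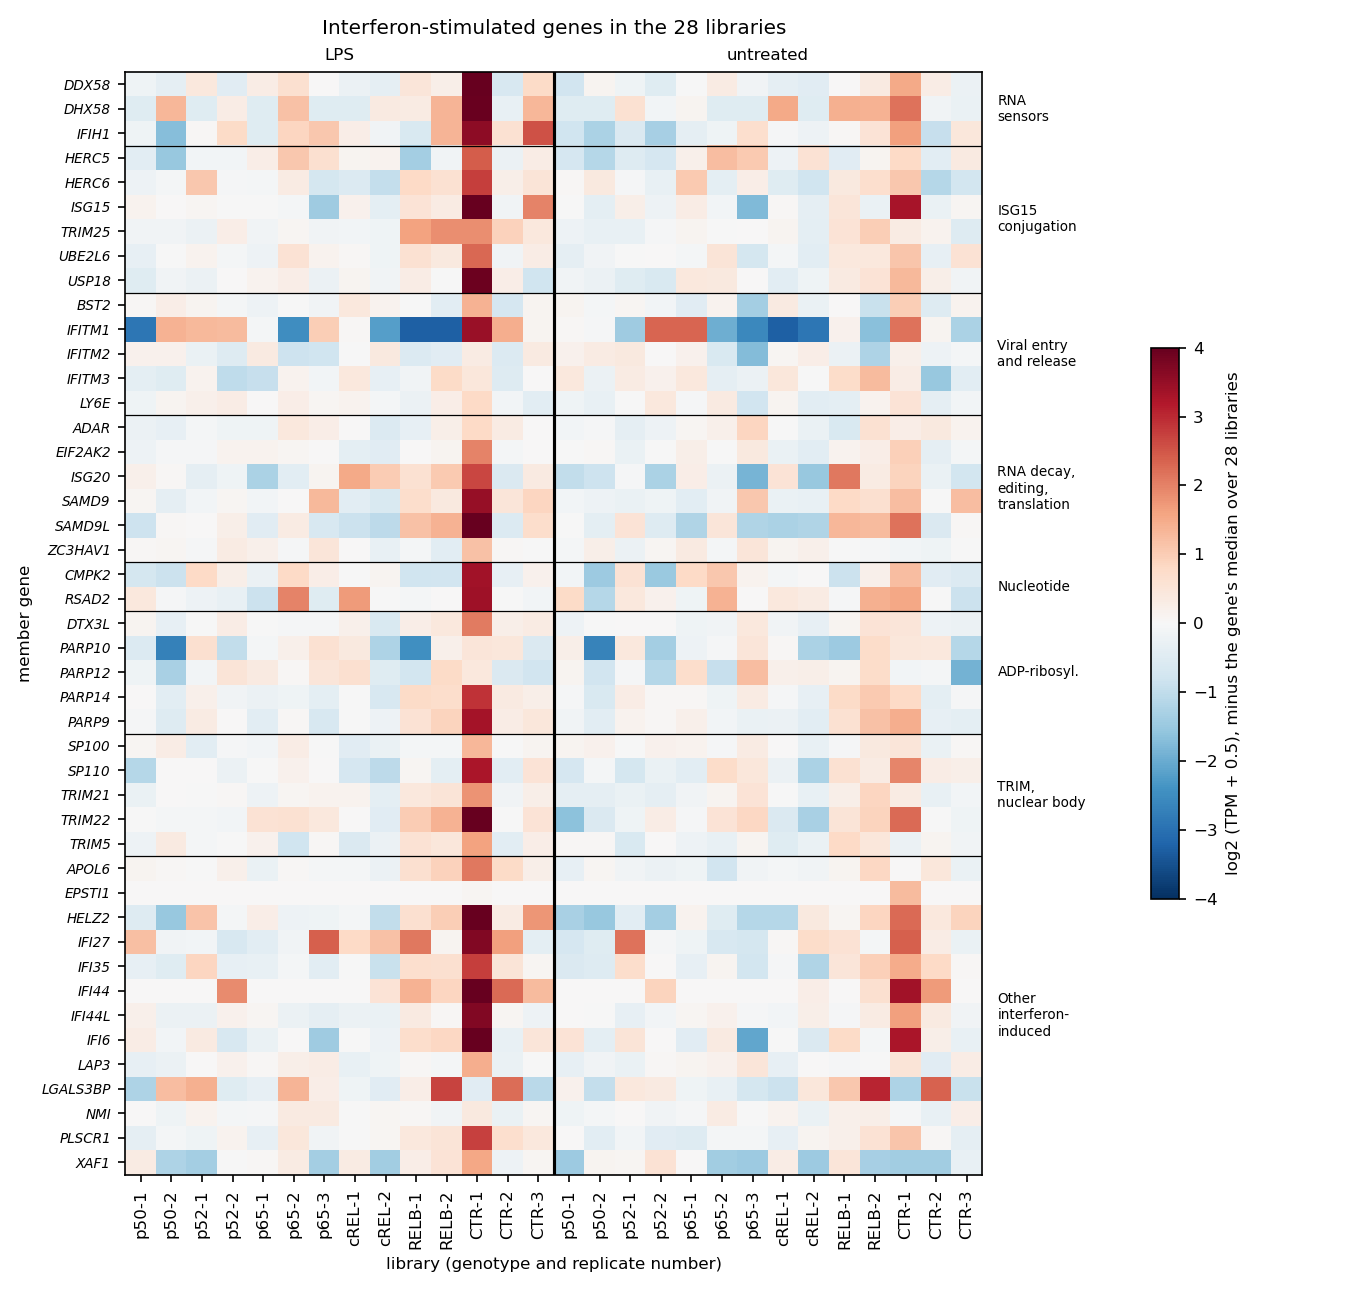
Level of each of the 45 members (rows, grouped by role) in each of the 28 libraries (columns), as log2(TPM + 0.5) minus the gene's median over all libraries; LPS libraries are on the left and untreated libraries on the right, knockouts before CTR. The column of CTR replicate 1 is high for most rows with LPS and, less so, untreated, while no other column is high over most rows.

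CPM are counts scaled for library size with a normalisation factor per library (TMM), and not for transcript length. On CPM, CTR replicate 1 was the highest of the 14 LPS libraries for 40 of the 43 tested members, all except IFITM2, PARP12 and LGALS3BP. Over all tested genes it was the highest for 8.95%. Untreated, it was the highest of 14 for 32 of the 43 members, against 9.47% of all genes. The margin was at least 2-fold in both treatments for 11 members, namely DDX58, IFIH1, DHX58, ISG15, USP18, SAMD9L, TRIM22, SP110, IFI6, IFI44 and HELZ2. Only 40 of the 18624 genes met that rule in this clone, and besides the 11 members they included 8 genes of the IFIT, OAS and MX families and 3 of the ISGF3 list. In each of the other 13 clones 0 to 30 genes met it and none was a member. At a margin of at least 4-fold 12 genes remained, of which 5 were members (ISG15, TRIM22, IFI6, IFI44 and HELZ2). These counts were made after CTR replicate 1 had been seen to stand apart, and describe it without a test.

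The NF-κB targets did not stand apart in this clone. Taking each clone's own LPS library against its untreated library, the 16 genes of the NF-κB target list (among them TNF, IL1B, CXCL8 and NFKBIA) had a median log2 change of 3.43 in CTR replicate 1, 2.49 in CTR replicate 2 and 3.90 in CTR replicate 3. The members had a median log2 change of 1.58, 0.10 and 0.62 in the same 3 clones. In CTR replicate 1, 42 of 43 members were higher with LPS and 32 by more than 1 log2 unit. In CTR replicate 2 those counts were 25 and 7, and in CTR replicate 3 they were 34 and 11. Over all genes, 9.66%, 8.01% and 9.74% rose by more than 1 log2 unit in CTR replicates 1, 2 and 3. In the 11 knockout clones 1 to 7 members did, against 6.14 to 11.5% of all genes. CTR replicate 2 therefore paired a large NF-κB target change with a member median close to 0. The mitochondrial share of counts was 4.01 to 4.32% in the libraries of CTR replicate 1 and 2.09 to 4.16% in the others. The summed T and NK cell list was 500 to 530 TPM in CTR replicate 1 and 105 to 499.9 TPM in the others, and total counts were ordinary. NKG7 made up most of that sum, with a mean of 340 TPM over all libraries, against 14.2 TPM for IL7R, the next highest. The part of these features in the difference was not tested.

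**Figure D2:**
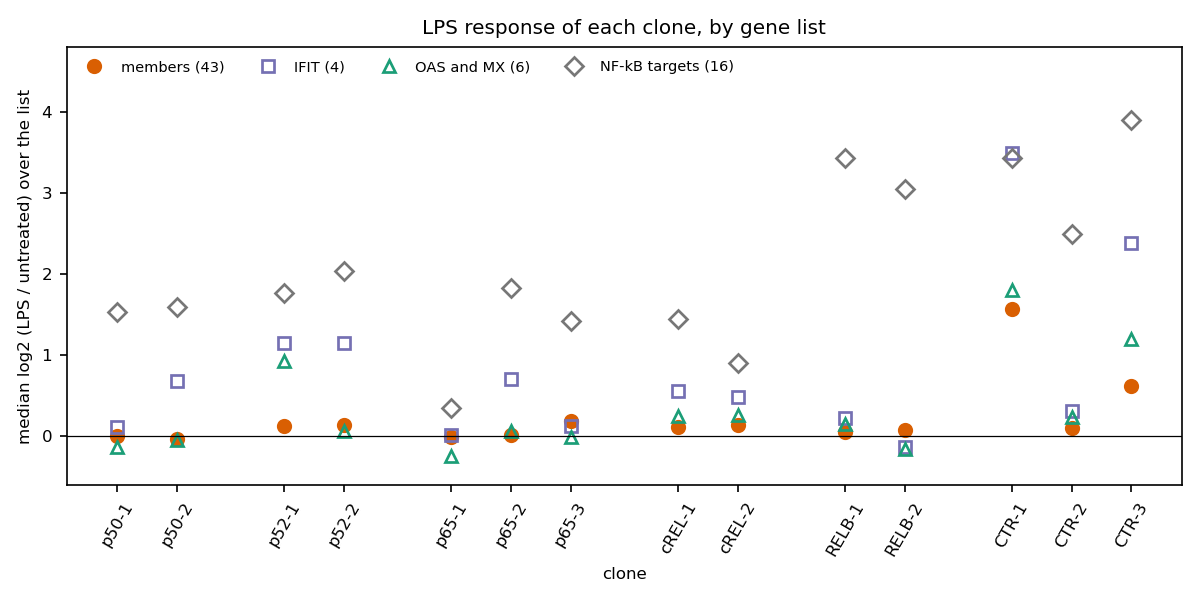
Median log2 change with LPS in each of the 14 clones (one point per clone, its LPS library against its untreated library), for the 43 tested members, 4 IFIT genes, 6 OAS and MX genes and 16 NF-κB targets; knockout clones precede CTR. The member medians of the knockout clones lie between −0.03 and 0.20, those of CTR replicates 1, 2 and 3 at 1.58, 0.10 and 0.62, and the NF-κB target medians of both RELB clones lie with those of CTR.

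The interferon genes themselves gave few reads. IFNB1, the interferon that TLR4 signalling induces first, had 0 estimated counts with LPS in all 11 knockout clones, against 13, 0 and 6 in CTR replicates 1, 2 and 3. Untreated, it had 2 counts in RELB replicate 2, 1 in CTR replicate 3 and 0 elsewhere. A count of 0 allows up to 3 counts, so at this depth IFNB1 was at the edge of detection, and the comparison is of 14 libraries without a usable fold. IFNL1, a type III interferon, had 0 counts with LPS in the knockout clones and in CTR replicates 2 and 3, and 3 in CTR replicate 1. The receptor chains spanned narrow ranges, with IFNAR1 at 28.5 to 60.2 TPM and IFNAR2 at 58.2 to 103 TPM over all 28 libraries.

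The ISGF3 subunits STAT2 and IRF9 stood high in CTR replicate 1 as their targets did. STAT2 was at 102, 10.9 and 12.1 TPM with LPS in CTR replicates 1, 2 and 3, against 29.6, 9.68 and 8.69 TPM untreated. IRF9, the DNA-binding subunit, was at 150, 20.3 and 44.6 TPM with LPS, against 78.9, 14.5 and 7.21 TPM untreated. For both the untreated library of CTR replicate 1 was already above the LPS libraries of the other 2 control clones. IRF7, which amplifies interferon output, was at 135, 9.41 and 14.3 TPM with LPS and at 47.4, 6.71 and 4.32 TPM untreated. For the 6 genes of the ISGF3 list the median log2 change was −0.08 to 0.16 in the knockout clones, and 1.23, 0.43 and 0.63 in CTR replicates 1, 2 and 3.

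Whether LPS raises the programme in control cells was asked first. In the edgeR quasi-likelihood fit with batch as a term, all 43 members had a positive log2 fold change in CTR and the median was 1.17, but none passed an adjusted p of 0.05, where 0.403% of all genes were called higher. At an unadjusted p under 0.05 there were 18 members. Here and below, the share of all genes at an unadjusted p under 0.05 is not given. Such counts therefore do not show an excess among the members. DESeq2 called 2 (APOL6 and IFIH1), where 0.832% of all genes were called in either direction, and limma voom with clone as a random effect called 1 (IFIH1), where 1.05% were. Without CTR replicate 1 none was called, where 29 of 18493 genes were, and the median log2 fold change was 0.25. For comparison, all 16 NF-κB targets were called higher, with a median of 3.32, while 0 of 4 IFIT genes (median 2.96), 0 of 6 OAS and MX genes (1.44) and 0 of 6 ISGF3 genes (1.12) were.

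Because the 2 libraries of a clone share that clone's level, a fit that blocks on the clone removes the standing difference between CTR replicate 1 and the rest. In that fit 8 members were called higher with LPS in CTR, where 1.21% of all genes were: IFIH1, ISG15, HERC6, TRIM25, PARP9, DTX3L, PARP14 and PLSCR1. Without CTR replicate 1, the blocked fit called TRIM25 alone, at a log2 fold change of 0.80 and an adjusted p of 0.0095, where 0.525% of all genes were called. On CPM, 20 of 43 members were higher with LPS in all 3 control clones, against 16.2% of all genes. For 5 of them (IFIH1, HERC6, ISG20, CMPK2 and IFI44) the change exceeded 1 log2 unit in all 3 clones. The share of all genes that did so in all 3 is not given here. Taken singly, CTR replicates 1, 2 and 3 had 9.66%, 8.01% and 9.74% of all genes over 1 log2 unit. TPM, which also takes in a transcript length estimated per library, gave smaller changes in CTR replicate 2: the ratio of LPS to untreated TPM there was 0.717 for ISG20, 1.10 for CMPK2 and 1.67 for IFI44. The ISG20 changes on CPM rest on few reads, 95, 21.0 and 23 estimated counts with LPS against 12, 6 and 4 untreated in CTR replicates 1, 2 and 3.

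**Figure D3:**
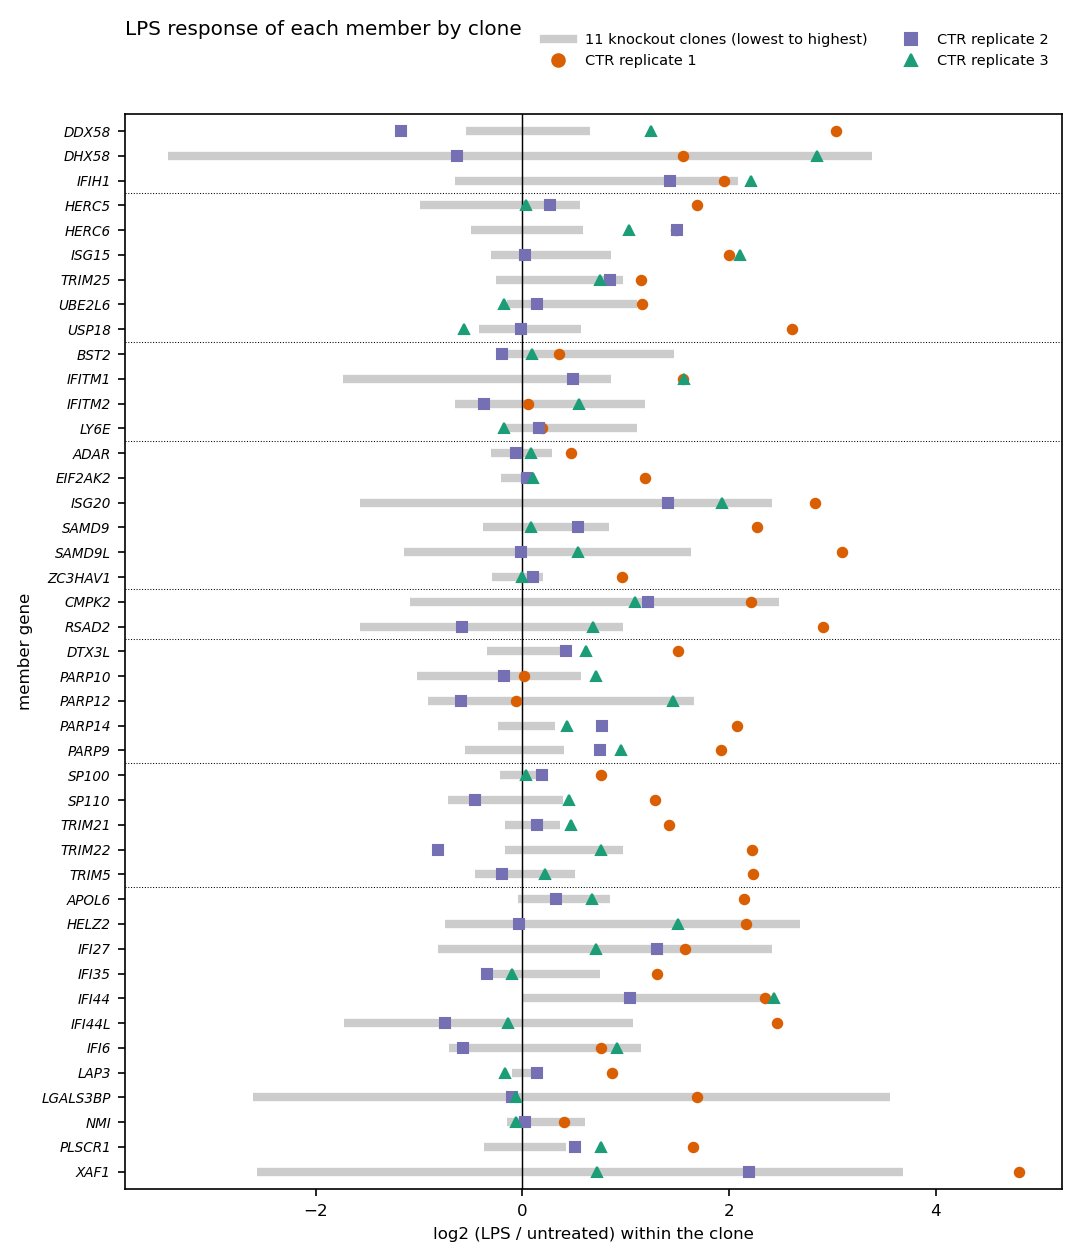
Log2 change with LPS of each of the 43 tested members within a clone, grouped by role; the grey bar spans the 11 knockout clones and the markers show CTR replicates 1, 2 and 3. The markers of CTR replicate 1 lie right of 0 for 42 of 43 members, and those of CTR replicate 2 lie within or near the grey bars for most.

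The RNA sensors recognise viral RNA in the cytoplasm and feed back into interferon production. All 3 were higher with LPS by more than 1 log2 unit in CTR replicates 1 and 3, with medians of 1.95 and 2.21, while the median in CTR replicate 2 was −0.63. That median was the value of DHX58, from 2 estimated counts with LPS against 4 untreated. In the same clone IFIH1 changed by 1.43 and DDX58 by −1.17 log2 units. DHX58 had 29 counts with LPS against 2 untreated in CTR replicate 3, and was at 0 in 10 of the 28 libraries. With LPS, DDX58, which encodes RIG-I, was at 2.01 to 4.83 TPM in the 11 knockout clones (median 2.92), against 78.8, 1.67 and 5.31 TPM in CTR replicates 1, 2 and 3. In the untreated libraries of those CTR clones it was at 9.32, 3.73 and 2.43 TPM. With LPS, CTR replicates 1 and 3 lay above every knockout clone and CTR replicate 2 below every one. The fitted log2 fold change of DDX58 in CTR was 2.19 ± 0.89 (SE, n = 3 clones, edgeR adjusted p = 0.816). IFIH1, which encodes MDA5, was at 122, 15 and 59.1 TPM with LPS in CTR, against 31, 4.86 and 13.5 TPM untreated. Each control clone held more IFIH1 with LPS than without, and the log2 fold change of 1.91 ± 0.52 (SE, edgeR adjusted p = 0.214) was nearly the same without CTR replicate 1, at 1.93. Blocked on the clone its adjusted p was 0.0132. IFIH1 was singled out after its values were seen. DHX58, which encodes the regulatory sensor LGP2, was at most at 1.27 TPM in the LPS-treated knockouts, against 10.3, 0.0732 and 1.25 TPM in CTR with LPS.

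The ISG15 system attaches a ubiquitin-like protein to newly made proteins, and had medians of 1.59, 0.20 and 0.39 in the 3 control clones. With LPS, ISG15 itself was at 6.05 to 25.6 TPM in the knockout clones (median 17.3), against 713, 15.5 and 69.3 TPM in CTR replicates 1, 2 and 3. In the untreated CTR libraries it was at 174, 14.1 and 18.1 TPM. With LPS, CTR replicate 2 lay inside that range and CTR replicate 1 was 10.3 times the next highest library. The CTR mean was 266 ± 388 TPM with LPS and 68.7 ± 91.3 TPM untreated (SD, n = 3 each), a spread as wide as the means. Its log2 fold change in CTR was 1.82 ± 1.00 (SE, n = 3, edgeR adjusted p = 1, and 0.0361 blocked on the clone). USP18, the protease that removes ISG15 and also restrains the interferon receptor, was at 133, 9.99 and 4.58 TPM with LPS, against 21.3, 9.83 and 7.39 TPM untreated. Among the 3 control clones its LPS library was thus well above its untreated library in CTR replicate 1 alone. UBE2L6, the E2 enzyme of the system, was at 437, 80.6 and 109 TPM with LPS and 191, 71 and 133 TPM untreated, again with 1 clone high. HERC6 was at 26.9, 4.33 and 5.29 TPM with LPS against 8.12, 1.35 and 1.94 TPM untreated, higher in all 3 clones, and had an adjusted p of 0.00369 in the blocked edgeR fit and 0.856 without the block. HERC5, the main human ISG15 ligase, was at 37.4, 5.46 and 8.1 TPM with LPS and 11.5, 4.71 and 8.53 TPM untreated.

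Genes of viral entry and release had the smallest role group median in CTR replicate 1, with medians of 0.27, −0.02 and 0.32 in the control clones. BST2, which encodes tetherin and holds budding virions on the cell surface, was among the most abundant members. With LPS it was at 175 to 313 TPM in the knockout clones, against 614, 147 and 255 TPM in CTR replicates 1, 2 and 3, and the untreated CTR libraries held 466, 165 and 260 TPM. CTR replicate 1 was high in both treatments, and LPS against untreated gave a log2 fold change of 0.16 ± 0.44 (SE, edgeR adjusted p = 1). IFITM2, an endosomal entry inhibitor, was at 129 to 305 TPM in the LPS-treated knockouts, a range that enclosed the 290, 159 and 296 TPM of CTR with LPS. Untreated CTR libraries held 268, 199 and 217 TPM of it. IFITM3, too low to test, was at 0.213 to 1.95 TPM in the LPS-treated knockouts, against 1.47, 0.512 and 0.938 TPM in CTR. LY6E, a surface protein that limits fusion of some viruses, was at 274, 145 and 118 TPM with LPS and 229, 124 and 147 TPM untreated.

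Among the genes of RNA decay, editing and translation, the medians were 1.73, 0.07 and 0.10. EIF2AK2, which encodes the translation-blocking kinase PKR, was at 52.3 to 79 TPM in the LPS-treated knockouts, against 285, 67.8 and 72.3 TPM with LPS in CTR replicates 1, 2 and 3. Untreated CTR libraries held 141, 56.4 and 68.9 TPM. SAMD9L, an antiviral factor that shuts down translation, was at 0.203 to 3.3 TPM in the LPS-treated knockouts, against 47.8, 0.484 and 1.85 TPM in CTR with LPS and 5.98, 0.482 and 1.01 TPM in CTR untreated. With LPS, only CTR replicate 1 stood outside the knockout range. Its fitted log2 fold change was 2.46 ± 1.12 (SE, edgeR adjusted p = 0.929), and 0.24 without that clone. ADAR, the editing enzyme, was at 94.8, 67.7 and 54.8 TPM with LPS and 64.6, 70.5 and 59.3 TPM untreated, and ZC3HAV1, the zinc-finger protein that targets CpG-rich viral RNA, was at 61.6, 28.1 and 26.5 TPM with LPS and 25.3, 24.1 and 27 TPM untreated. For both, the LPS library was well above the untreated one in CTR replicate 1 alone. SAMD9, the paralogue next to SAMD9L, was at 21.4, 2.26 and 3.03 TPM with LPS and 4.13, 1.45 and 4.08 TPM untreated. ISG20, an RNA exonuclease, was at 11.4, 0.745 and 1.85 TPM with LPS and 2.9, 1.04 and 0.616 TPM untreated.

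The nucleotide antivirals are a pair of neighbouring genes on chromosome 2 that share 829 bases, and their reads may be split between them by estimation. CMPK2, a mitochondrial nucleotide kinase, was at 1.76 to 6.69 TPM in the LPS-treated knockouts, against 41.7, 2.76 and 4.15 TPM with LPS in CTR replicates 1, 2 and 3. Untreated CTR libraries held 9.25, 2.51 and 2.33 TPM. CTR replicates 2 and 3 lay within the knockout range with LPS. Its log2 fold change was 1.95 ± 0.82 (SE, edgeR adjusted p = 0.836, and 0.0699 blocked). RSAD2, which encodes viperin and makes a chain-terminating nucleotide, was at 12.9, 0.752 and 0.659 TPM with LPS and 3.18, 0.752 and 0.188 TPM untreated.

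In the ADP-ribosylation group the medians were 1.50, 0.42 and 0.71. PARP9, which works as a complex with the ligase DTX3L, was at 5.97 to 18.1 TPM in the LPS-treated knockouts, against 101, 11.9 and 13.5 TPM with LPS in CTR replicates 1, 2 and 3. Untreated CTR libraries held 27.2, 7.51 and 7.17 TPM. All 3 CTR clones were higher with LPS, and only CTR replicate 1 exceeded the knockouts. Its log2 fold change was 1.56 ± 0.58 (SE, edgeR adjusted p = 0.678, and 0.00336 blocked). DTX3L was at 50.5, 13.8 and 14.7 TPM with LPS and 16.3, 10.1 and 9.87 TPM untreated, and PARP14 was at 44.3, 7.25 and 6.65 TPM with LPS and 10.1, 4.11 and 5.35 TPM untreated. PARP9 and DTX3L share 339 bases and the ISRE core printed for DTX3L, so reads may be split between them. PARP12 was at 3.72 to 17.5 TPM in the LPS-treated knockouts, a range that enclosed the 13.4, 6.45 and 5.65 TPM of CTR with LPS, and at 9.2, 9.37 and 2.33 TPM in CTR untreated. PARP10 was at 2.36 to 28.2 TPM in the LPS-treated knockouts, against 25.6, 24.6 and 11.8 TPM in CTR with LPS, also without separation.

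The TRIM and nuclear body proteins had medians of 1.42, −0.20 and 0.45. TRIM22, a nuclear restriction factor, was at 3.05 to 12.2 TPM in the LPS-treated knockouts, against 132, 4.31 and 6.53 TPM with LPS in CTR replicates 1, 2 and 3. Untreated CTR libraries held 22.7, 4.25 and 3.79 TPM. CTR replicate 1 was 10.8 times the next highest LPS library. The log2 fold change of 1.65 ± 0.85 (SE, edgeR adjusted p = 1) became 0.07 without that clone. TRIM21, a cytoplasmic antibody receptor, was at 108, 28.2 and 36.4 TPM with LPS and 39.2, 25 and 28.5 TPM untreated. SP110 was at 99.6, 7.14 and 14.7 TPM with LPS and 39.6, 12.3 and 11.6 TPM untreated, and SP100 at 158, 61.6 and 66.5 TPM with LPS and 88.2, 51.2 and 65 TPM untreated. TRIM5, which binds retroviral capsids, was at 26.9, 6.18 and 10.3 TPM with LPS and 7.12, 9.3 and 7.7 TPM untreated. TRIM22 and TRIM5 lie next to each other with overlapping models, so reads may be shared.

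Among the other interferon-induced proteins, the medians were 1.67, 0.08 and 0.69. IFI6, a mitochondrial and endoplasmic reticulum protein that limits cell death and virus replication, was at 12.8 to 62.5 TPM in the LPS-treated knockouts, against 597, 28.4 and 49.3 TPM with LPS in CTR replicates 1, 2 and 3. Untreated, it was at 7.89 to 59.3 TPM in the knockouts, against 344, 41.4 and 28.4 TPM in CTR. CTR replicate 1 was thus far above the knockouts before LPS was added, and CTR replicate 2 held less with LPS than without. The log2 fold change was 0.59 ± 0.97 (SE, edgeR adjusted p = 1). IFI6 was singled out after its values were seen. HELZ2, a helicase coactivator, was at 0.0722 to 3.1 TPM in the LPS-treated knockouts, against 41.2, 1.53 and 5.08 TPM in CTR with LPS and 7.32, 1.69 and 2.55 TPM in CTR untreated. Its log2 fold change was 1.86 ± 0.92 (SE, edgeR adjusted p = 1). LAP3, an aminopeptidase, was at 245, 73.8 and 88.3 TPM with LPS and 127, 64.3 and 109 TPM untreated, and NMI at 103, 66.1 and 83.3 TPM with LPS and 76.9, 63.7 and 95.5 TPM untreated. IFI35, the partner protein of NMI, was at 51.9, 10.6 and 7.63 TPM with LPS and 21.2, 12.9 and 7.63 TPM untreated. Both were highest in CTR replicate 1 with LPS, NMI by a narrow margin. IFI44L, the neighbour of IFI44, was at 0.0355 to 0.386 TPM in the LPS-treated knockouts, against 8.47, 0.22 and 0.101 TPM in CTR with LPS. IFI27, a mitochondrial protein, was at 10.9, 2.24 and 0.161 TPM in CTR with LPS, and XAF1, a pro-apoptotic protein, was at 3.49, 0.691 and 0.972 TPM. LGALS3BP went against the rest, at 0.344, 4.99 and 0.0472 TPM with LPS and 0, 5.55 and 0.132 TPM untreated, high in CTR replicate 2 and near 0 in the other 2 control clones.

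**Figure D4:**
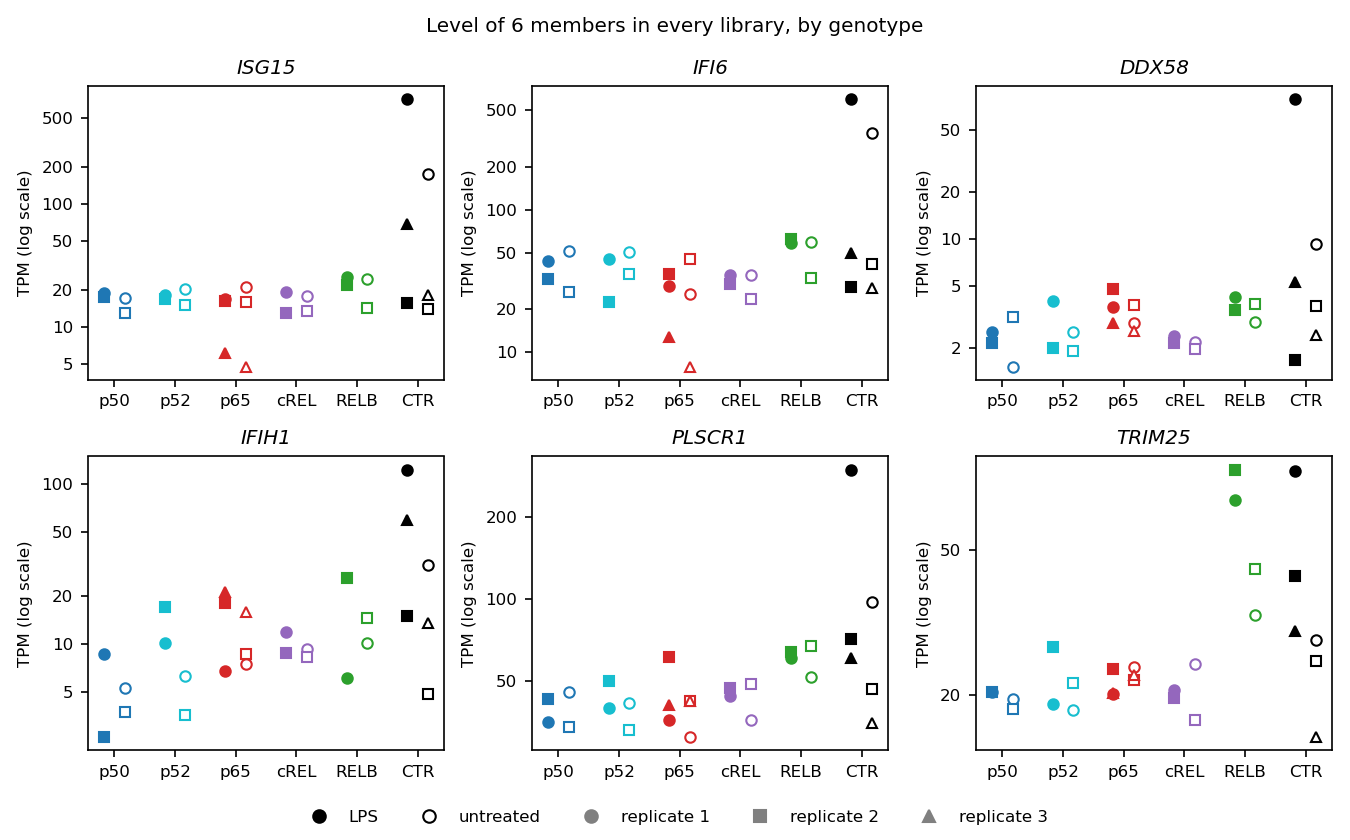
Level (TPM, log axis) of ISG15, IFI6, DDX58, IFIH1, PLSCR1 and TRIM25 in each library by genotype, knockouts left of CTR; filled points are LPS libraries and open points untreated ones. For TRIM25 the RELB clones reach 68.7 and 83 TPM with LPS, and for ISG15, IFI6 and DDX58 the CTR replicate 1 points stand alone, at 713, 597 and 78.8 TPM.

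In the knockout clones no member passed the test for LPS. The edgeR fit called 0 of 43 members in each knockout group, where 0.0161% (p50), 0.0215% (p52), 0.0268% (p65), 0.0107% (cREL) and 0.129% (RELB) of all genes were called. At an unadjusted p under 0.05 there were 0 to 2 members per group, and neither DESeq2 nor limma voom called any. The median log2 fold change of the members was 0.01 in p50, 0.15 in p52, 0.04 in p65, 0.10 in cREL and 0.12 in RELB, and 0.03 in p65 without the clone labelled p65 replicate 1. Clone by clone it was −0.03 to 0.20 and 20 to 29 of the 43 members were higher with LPS. NF-κB targets had clone medians of 0.35 to 2.03 in the 9 clones of p50, p52, p65 and cREL, and 3.05 and 3.43 in the RELB clones, so the RELB clones, as did CTR replicate 2, paired a large NF-κB target change with a member median near 0.

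With the clone as a block, 1 member was called in 1 knockout group. TRIM25 rose with LPS in RELB, to 68.7 and 83 TPM against 33.1 and 44.3 TPM untreated, a log2 fold change of 0.97 ± 0.14 (SE, n = 2 clones, edgeR adjusted p = 0.00216), where 0.43% of all genes were called higher. TRIM25, the E3 ligase that ubiquitinates RIG-I and can also attach ISG15, was named here after its values were seen. In the 9 clones of p50, p52, p65 and cREL its LPS levels were 18.9 to 27 TPM, below every RELB and CTR library with LPS. In CTR it was at 82.5, 42.4 and 30 TPM with LPS, against 28.3, 24.8 and 15.3 TPM untreated, higher in 3 of 3 clones (log2 fold change 0.98 ± 0.30, edgeR adjusted p = 0.382; blocked 0.92 ± 0.11, adjusted p = 2.07e-04).

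The knockouts were then set against CTR within LPS. In p65 the members had a median log2 fold change of −1.88 against CTR, and 3 of 43 were called lower, where 0.655% of all genes were. PLSCR1, a phospholipid scramblase that interferon induces strongly, was at 35.8, 61.1 and 40.6 TPM with LPS in p65 replicates 1, 2 and 3, against 298, 71 and 60.7 TPM in CTR replicates 1, 2 and 3. In TPM p65 replicate 2 reached the level of CTR replicate 3, while on CPM the groups did not overlap. The group means were 45.8 ± 13.4 TPM in p65 and 143 ± 134 TPM in CTR (SD, n = 3 each), and the log2 fold change was −1.78 ± 0.41 (SE, n = 3 each, edgeR adjusted p = 0.041). APOL6, an apolipoprotein L family member, was at 4.75, 5.95 and 5.45 TPM in p65 against 26.6, 10.2 and 6.9 TPM in CTR, and did not overlap between the groups. Its log2 fold change was −1.59 ± 0.35 (SE, edgeR adjusted p = 0.0322). IFITM1, which blocks virus entry at the cell surface, had 3.72, 2.73 and 2.00 estimated counts in p65 against 214, 7.01 and 41.5 counts in CTR, with a log2 fold change of −5.25 ± 0.98 (SE, edgeR adjusted p = 0.0102).

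These 3 calls depended on which clones were in the fit. IFITM1 had few counts and its model overlaps IFITM2, and per transcript length its values overlapped, at 4.04, 0.364 and 9.09 TPM in p65 and 52.4, 12.6 and 4.69 TPM in CTR. With an offset for effective length its adjusted p was 0.215. Without CTR replicate 1 none of the 43 members was called in p65, where 0.395% of all genes were called lower, and the member median was −0.41. The log2 fold changes were then −0.71 for PLSCR1, −0.66 for APOL6 and −3.80 for IFITM1. Leaving out CTR replicate 2 gave 11 lower members, where 0.666% of genes were called, and leaving out CTR replicate 3 gave 16, where 0.738% were. Without the clone labelled p65 replicate 1, which keeps RELA mRNA, 1 member was called (PARP14, which modifies STAT signalling proteins), where 0.401% of all genes were called in either direction, and the member median was −2.28. Without p65 replicate 2 or 3 none was called. Leaving out any 1 clone of the other knockouts gave 1 or 2. Within batch C alone, 2 p65 clones against 2 CTR clones, none was called, where 9 of 15675 genes were, and the member median was −2.39. DESeq2 called 21 lower, where 1.97% of all genes were, and limma voom called 2, where 1.36% were called in either direction. At an unadjusted p under 0.05 there were 30 members in the edgeR fit, without the share of all genes to set beside them.

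**Figure D5:**
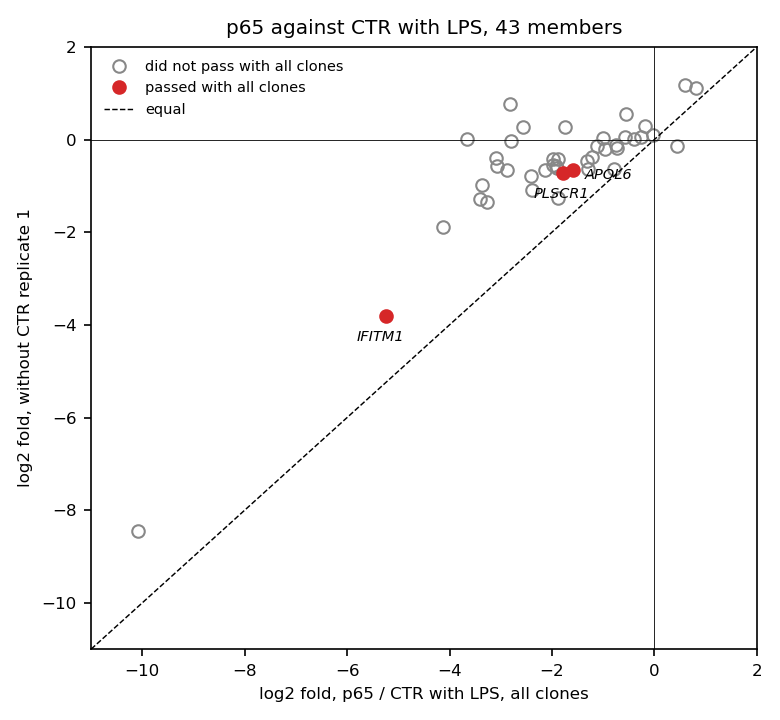
Log2 fold change of p65 against CTR with LPS for each of the 43 tested members, with all clones (horizontal axis) and without CTR replicate 1 (vertical axis); the diagonal marks equal values and the 3 members that passed the test with all clones are labelled. Most points lie above the diagonal, and the median is −1.88 with all clones and −0.41 without CTR replicate 1.

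A comparison that does not weight 1 clone by its size is whether the groups overlapped. All 3 p65 libraries lay below all 3 CTR libraries with LPS for 12 members (HERC6, TRIM25, IFITM1, ISG20, PARP9, DTX3L, PARP14, IFI27, IFI44, PLSCR1, APOL6 and HELZ2), on CPM, against 6.93% of all genes. All 9 libraries of p50, p52, p65 and cREL lay below all 3 CTR libraries for 5 members (TRIM25, PARP14, IFI44, PLSCR1 and APOL6), against 1.9% of all genes. For TRIM25, PARP14, PLSCR1 and APOL6 both RELB libraries lay above those 9 as well. Only IFI44 separated all 11 knockout libraries from all 3 CTR libraries on CPM. The share of all genes that met these last 2 rules is not given here. IFI44 had 0 counts with LPS in all 3 p65 libraries, against 247, 27 and 9 counts in CTR, at least 94.3-fold lower per group when 3 counts over the group are taken as the floor. It had 0 counts in both p50 libraries too, at least 53.4-fold lower. Both bounds rest on CTR replicate 1, and without it they were 17.4-fold for p65 and 9.86-fold for p50. IFI44 had 4 to 9 counts in 4 other knockout libraries, and in TPM p52 replicate 2, at 1.37, lay above CTR replicate 3, at 0.714.

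The member medians of the other knockouts against CTR with LPS were nearer to 0 than that of p65. The edgeR fit called 0 of 43 members in p50, where 0.129% of all genes were called, in p52 (0.0698%), in cREL (0.199%) and in RELB (0.0483%). The member medians were −1.29, −0.97, −1.25 and −0.65, and 13, 4, 15 and 2 members had an unadjusted p under 0.05. In the order p50, p52, cREL and RELB, these medians became −0.24, −0.11, −0.31 and 0.16 without CTR replicate 1, −2.17, −1.98, −2.36 and −1.81 without CTR replicate 2, and −0.37, −0.30, −0.57 and 0.01 without the clone labelled p65 replicate 1. Batch C held only CTR and p65 clones, so CTR replicate 2 and the clone labelled p65 replicate 1 alone tie it to the other batches in this fit. DESeq2 called 2 in p50 (HELZ2 and IFIH1), 0 in p52, 2 in cREL (APOL6 and HELZ2) and 1 in RELB (IFITM1), where 1.27%, 1.43%, 1.23% and 1.16% of all genes were called. limma voom called none in these 4. For the mean of the 5 knockouts against CTR, IFITM1 was called lower at a log2 fold change of −4.39 (edgeR adjusted p = 0.0216), where 0.617% of all genes were called lower. The member median was −1.22. Without CTR replicate 1 it was −0.12, with no member called where 106 of all genes were. It was −2.12 without CTR replicate 2 and −0.58 without the clone labelled p65 replicate 1. IFITM1 also lost its call without CTR replicate 2, cREL replicate 2, p52 replicate 1 or the clone labelled p65 replicate 1. Without CTR replicate 3, 5 members were called, where 112 of all genes were. All of these comparisons share the 3 CTR clones.

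The neighbouring interferon and NF-κB lists separated in the same comparison. In p65 against CTR with LPS, 2 of 4 IFIT genes (IFIT2 and IFIT3) and 1 of 6 OAS and MX genes (OAS3) were called lower, with medians of −4.57 and −3.53, while 0 of 6 ISGF3 genes were called, with a median of −1.55. Of the 16 NF-κB targets 15 were called lower, with a median of −2.63. Without CTR replicate 1, 13 of the 16 NF-κB targets and none of the IFIT, OAS and MX genes were called lower. In the mean of the 5 knockouts 12 of 16 NF-κB targets were called lower. Of the TLR4 signalling list 1 of 8 genes passed in the CTR LPS comparison, TRAF3, which was higher and is the ubiquitin ligase that links TRIF to IRF3; it was not called without CTR replicate 1. None of the 8 interferon receptor genes or 5 genes that restrain interferon signalling passed there.

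Untreated cells showed no called difference in the programme. The edgeR fit called 0 of 43 members in each knockout against CTR, where 0% (p50), 0% (p52), 0.0537% (p65), 0% (cREL), 0.0107% (RELB) and, for the mean of 5 knockouts, 0.0322% of all genes were called. The member medians were −0.08, 0.04, −0.49, −0.05, 0.18 and −0.10, and 0 to 9 members had an unadjusted p under 0.05. Neither DESeq2 nor limma voom called any. The direction of these medians depended on single clones and on the batch term. In the same order they were 0.12, 0.13, −0.02, 0.07, 0.36 and 0.12 without CTR replicate 1, and −0.83, −0.63, −0.82, −0.76, −0.40 and −0.80 without CTR replicate 2. Without CTR replicate 3 they were −0.20, −0.10, −0.85, −0.14, −0.03 and −0.24. Without the clone labelled p65 replicate 1 they were 0.42, 0.42, −1.09, 0.30, 0.70 and 0.16, with 16 members at an unadjusted p under 0.05 in p65, and with no batch term they lay between −0.65 and −0.42.

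Whether the LPS response itself depends on a subunit was tested as the difference in response between each knockout and CTR. The edgeR fit called 0 of 43 members for p50, p52, cREL, RELB and the mean of the 5, where 0% of all genes were called, and 0 for p65, where 0.0161% were. The member medians lay between −0.996 and −0.866, and 0 to 12 members had an unadjusted p under 0.05. DESeq2 and limma voom called none. The medians lay between −0.24 and −0.02 without CTR replicate 1, and that of p65 was −0.81 without the clone labelled p65 replicate 1, against −0.93 with it. With the clone as a block, TRIM25 was called for p65, with a difference of −0.92 ± 0.16 log2 units (SE, edgeR adjusted p = 0.0413), where 0.0698% of all genes were called lower. The difference was −0.80 without CTR replicate 1 and the adjusted p was then 0.206, and it was not called without the clone labelled p65 replicate 1. At these group sizes an adjusted p above the threshold does not show that the responses are alike.

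The RELB clones carried more of some members than the other knockouts did. Both RELB libraries lay above all 9 libraries of p50, p52, p65 and cREL for 10 of 43 members with LPS (HERC6, TRIM25, SAMD9L, PARP9, PARP14, TRIM21, TRIM22, IFI6, PLSCR1 and APOL6), against 5.24% of all genes. Untreated this held for 9 of 43 members (HERC6, TRIM25, SAMD9L, PARP9, PARP14, TRIM5, TRIM22, HELZ2 and LGALS3BP), against 4.92% of all genes. It also held for 13 of 16 NF-κB targets with LPS and 2 of 16 untreated, for 2 of 4 IFIT genes with LPS and 4 of 4 untreated, for 2 of 6 OAS and MX genes with LPS and 3 of 6 untreated, and for 0 of 6 ISGF3 genes with LPS and 1 of 6 untreated. TRIM25 was at 33.1 and 44.3 TPM untreated in RELB against 17.1 to 24.4 TPM in those 9 clones. The pattern was seen in the data and has no test, and 1 RELB clone was in batch A and the other in batch B.

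The responses in CTR were also split by the ISRE core in the promoter window, with no test of the difference. The 23 tested members with a core had medians of 1.69, 0.14 and 0.62 in CTR replicates 1, 2 and 3, and the 13 tested members with a window but no core had medians of 1.30, 0.10 and 0.53. The lowest and highest responses in CTR replicate 1 were −0.06 and 2.91 with a core and 0.47 and 4.81 without. The split is by the exact core alone. Windows of DDX58, XAF1, CMPK2 and TRIM25 count as without it, but hold GAAA, 1 base, then GAAA on 1 strand. The medians are descriptions over genes that share the same libraries.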

How the data were processed

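Polyadenylated RNA was made into full-length cDNA with oligo(dT) priming and PCR and sequenced as paired reads without molecular identifiers, per the labels' protocols. The deposited values are estimated counts and TPM per gene symbol; Salmon 0.11.3, FastQC 0.11.7 and GRCh38 are named in the submitters' processing notes, and the strand setting is not given in the sources used here. The authors' estimated counts (41.0 to 47.5% of the values above 0 are whole numbers) were rounded and tested, and TPM was used for levels. Levels per clone and counts of the highest library used log2 CPM, scaled with the TMM factors, with a prior count of 2. The authors also deposited effective transcript lengths, a signal in bases per gene and library, used here in 1 alternative alone.

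The main test was edgeR 4.0.16 (R 4.3.3), quasi-likelihood with TMM, 12 groups plus batch over 28 libraries, for 18624 genes that passed a count minimum of 10, with Benjamini-Hochberg adjustment over all of them and a threshold of 0.05. The alternatives were DESeq2 1.42.0, limma 3.58.1 voom, RLE size factors, an offset for effective length, keeping genes of low count, dropping the batch term, the clones of batch C by themselves, the clone as a block and leaving out each of the 14 clones. Without the block, DESeq2 and edgeR enter both libraries of a clone as separate observations. Their p-values measure the spread between libraries of a group after the batch term, pooled over the 12 groups. In the blocked edgeR fit they measure the spread of the LPS change between clones of a genotype, also pooled. Replicate libraries of a group correlated at 0.947 to 0.969 over 20 pairs and none were identical. Same-numbered libraries of a genotype deviated together, with correlations of 0.203 to 0.441 over 14 clones, and are taken as 1 clone. Both clones of p50, of p52, of cREL and of RELB have the same value, so the 14 values are not independent. Same-numbered libraries also share a batch. The edgeR fits, with and without the block, were tested on simulated counts that held no clone effect, no batch effect and no outlying clone. That test therefore says nothing on those features.

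The members and lists were chosen with earlier results of these data known. Genes named in full were those that passed in the main fit and, per role group, the one with the largest LPS fold in CTR at a mean of at least 5 CPM; others are said to have been chosen afterwards or illustrate their group. Promoter sequences are from RefSeq (GRCh38.p14). All 56809 symbols are in GENCODE 29, whose models gave the overlaps between genes. Values after ± are the SE of the fit or the SD over clones, and the floor of 3 counts covers counting error only. A few items withheld from this text are not reported here.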

Additional observations from a re-analysis of the deposited data

Results flagged for a closer look

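With the clone as a block, the LPS response of TRIM25 differed between p65 and CTR by −0.92 log2 units (edgeR adjusted p = 0.0413), from 20.1, 23.6 and 20.2 TPM with LPS in p65 replicates 1, 2 and 3 against 23.9, 22 and 22.6 TPM untreated, and 82.5, 42.4 and 30 TPM with LPS in CTR replicates 1, 2 and 3 against 28.3, 24.8 and 15.3 TPM untreated. This was picked out because a test of the difference between the responses passed. Without CTR replicate 1 the difference was −0.80 and the adjusted p 0.206. No group held 4 or more libraries, so no search for a single outlying sample within a group was made.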

How the results depend on the processing

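Of 521 recomputed counts of called members 463 stayed within 1.5 times of the count reported, counts of 0 that stayed 0 among them. Of 521 recomputed medians 480 moved by less than 1 SD between clones, a spread that CTR replicate 1 widens: the medians against CTR with LPS were −1.88 to −0.65, and −0.41 to 0.16 without CTR replicate 1. Among 441 values for single members 367 kept direction and call, 43 lost the call, 28 gained it and 3 changed sign: TRIM22 in the CTR LPS comparison (−0.0103, replicate block without CTR replicate 1) and BST2 (−0.0521 in that fit, and −0.0354 to 0.266 when 1 clone was left out of the main fit, lowest without CTR replicate 1). The cause was not tested for any change here.

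With the replicate block, 8 members were called in CTR with LPS, 1 in RELB with LPS and 1 in the difference for p65; the block changed no other call, and knockouts could not be set against CTR with it, since each clone has 1 genotype. Added after seeing the data, the block without CTR replicate 1 gave 1 in CTR and 1 in RELB, of 103 and 78 genes. Without p65 replicate 1 it gave 5 in CTR and 1 in RELB, of 205 and 84 genes. DESeq2 called 2 in CTR with LPS and, against CTR with LPS, 2 for p50, 21 for p65, 2 for cREL, 1 for RELB and 9 for the mean of knockouts, where 155 genes in all were called in CTR and 236, 650, 229, 216 and 534 against CTR. limma voom called 1 in CTR with LPS and 0 for the mean, of 196 and 160 genes. The effective length offset left 0 for the mean, of 96 genes. No batch term gave 22 for the mean and 1 for p65, of 224 and 65 genes. Batch C alone gave 0 for p65, of 9 genes.

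Without a filter on low counts, 19 members were called in CTR and 1 in p52 with LPS, of 252 and 74 genes in all. Against CTR with LPS the counts were 19 for p50, 13 for p52, 33 for p65, 18 for cREL, 7 for RELB and 23 for the mean, of 400, 347, 992, 364, 436 and 594 genes. Untreated they were 3, 1, 15, 3, 2 and 5, of 172, 157, 995, 129, 538 and 268 genes, and for the difference in response 5, 3, 8, 4, 4 and 11, of 80, 75, 89, 69, 34 and 97 genes.

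Leaving out 1 clone at a time gave 0 to 16 members for p65 with LPS, 0 to 5 for the mean with LPS and 0 to 1 for p65 untreated, and 0 throughout for the other 21 comparisons. Depth limits IFNB1, IFI44, IFITM1, DHX58 and EPSTI1, which had few or no counts in most libraries.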

Other observations

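At 4-fold above the other 13 clones in both treatments, CTR replicate 1 had 2 genes outside every interferon list used here, RNASE1, a secreted ribonuclease, and ISLR, an immunoglobulin superfamily protein.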
